A study of Arabidopsis thaliana with 6 samples.

Results

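The genes described here are 60 Arabidopsis loci for NLR immune receptors. In the platform annotation used, 44 of them had a probe set of their own, out of 13286 genes with one. NLR stands for nucleotide-binding leucine-rich repeat. A gene was taken as measured where a probe set listed it alone, and each of the 44 had a single such probe set. Of the other 16 loci, 10 were listed only on probe sets shared by several genes and 6 on none, so no level is given for them. Affymetrix ATH1 arrays gave the transcript levels of yaf9a yaf9b double mutant and wild-type (WT) seedlings of Arabidopsis thaliana, both in the Col-0 background. Each genotype had 3 biological replicates of about 250 mg of seedlings, 6 arrays in all. Plants were 20 days old, had grown on agar at 22 °C in 8 h of light and 16 h of dark, and were taken when the light ended (ZT8), with no treatment. YAF9A and YAF9B are subunits shared by the histone acetyltransferase NuA4 and by SWR1, which places the histone variant H2A.Z in chromatin. The labels name neither the mutant alleles nor any pathogen.

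NLR proteins sit inside plant cells and recognise pathogen effectors, either directly or through the host proteins that the effectors alter. They fall into classes by their first domain. TIR-class receptors make nucleotide signals that reach EDS1 with its partners PAD4 or SAG101, which in turn engage helper NLRs. Several coiled-coil-class receptors assemble into channels in the plasma membrane. NLR genes often lie in genomic clusters of related copies, and plants keep their transcript levels low, since raised levels of some of them cause immunity without a pathogen and stunted growth.

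Few NLR transcripts were called changed between yaf9a yaf9b and WT seedlings, and most gave little signal. Of the 44 measured genes, 1 rose and 0 fell in the mutant at a limma adjusted p under 0.05, against 13.1% of all 22746 probe sets (6.52% higher and 6.61% lower). In the lowest quartile of signal, where 23 of the 44 lay, 1.34% of all probe sets passed. In the second quartile, where 13 lay, 14.1% of all probe sets passed and 0 of the 13. The NLR gene that rose was AT1G63350, a coiled-coil-class gene, 1.41-fold higher in the mutant. The count of called NLR genes was 0 without WT array 1, WT array 2 or mutant array 2, and 1 without WT array 3 (AT1G56520 in place of AT1G63350). It was 2 without mutant array 1 and 3 without mutant array 3, and no NLR gene fell in any of these fits. Of all probe sets, 8.97%, 6.07% and 4.23% passed in the fits that gave 0, in the order named. The share was 10% without WT array 3, 8.46% without mutant array 1 and 11.8% without mutant array 3. The median log2 change of the 44 genes was 0.05, beside 0.01 over all probe sets, and the changes ran from -0.26 to 0.64. Above the median signal, the median change was 0.2 for 8 NLR genes, against -0.03 for all probe sets there. At an unadjusted p under 0.05, 6 genes were higher and 1 lower, 15.9% of the 44 against 27.8% of all probe sets (13.3% higher and 14.4% lower). The mean change exceeded 1.5-fold in 1 gene, AT1G63750, 2.27% of the 44 against 7.29% of all probe sets. The 95% interval of the change lay within 1.5-fold in both directions for 36 of the 44 genes (81.8%), beside 75.7% of all probe sets. For the other 8 genes a change of 1.5-fold or more lay within the interval. The share with its interval within 1.5-fold was lower above the median signal than in the lowest quartile, for NLR genes and all probe sets alike. The difference was not tested. In the lowest quartile of signal, the interval lay within 1.5-fold for all 23 NLR genes, beside 96.3% of all probe sets there. Above the median signal, it did so for 4 of 8 NLR genes (50%), beside 69.9% of all probe sets there.

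**Figure D1:**
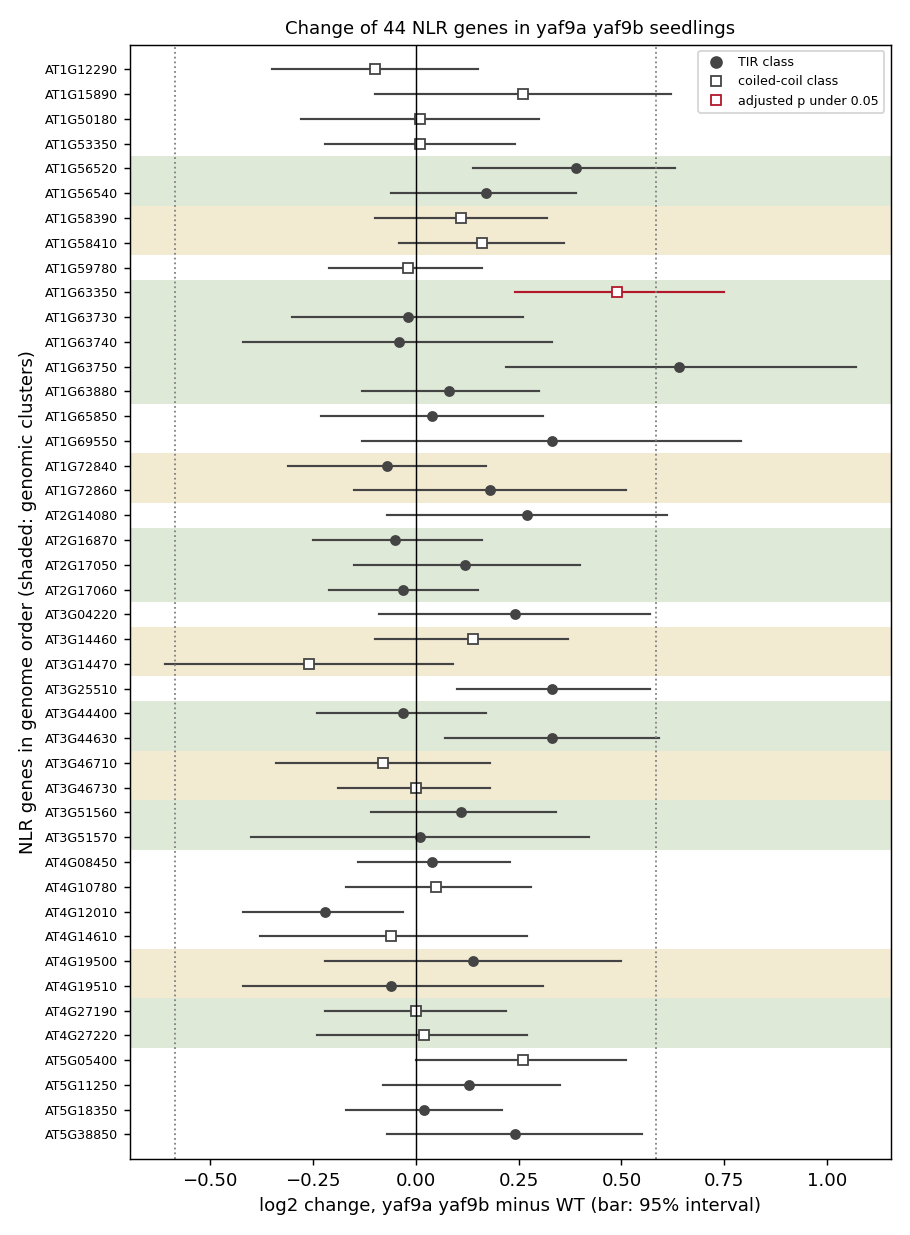
Log2 change (yaf9a yaf9b minus WT, horizontal axis) of the 44 NLR genes in genome order, with the 95% interval from limma as a bar; filled circles are TIR-class and open squares coiled-coil-class genes, shaded rows are genomic clusters and dotted lines mark 1.5-fold. Changes lie between -0.26 and 0.64, and AT1G63350, in red, is the gene with an adjusted p under 0.05.

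AT1G63350 had log2 signals of 6.61, 6.46 and 6.31 in mutant arrays 1, 2 and 3, against 6.03, 6.06 and 5.81 in WT arrays 1, 2 and 3. All mutant arrays lay above all WT arrays. The means were 6.46 ± 0.15 in the mutant and 5.97 ± 0.137 in WT (SD, n = 3 each), a log2 change of 0.49 ± 0.112 (SE, limma adjusted p = 0.0263). With 1 array left out the change stayed between 0.42 and 0.57, but the call ended in 5 of the 6 cases: without WT array 1, 2 or 3 (adjusted p = 0.0555, 0.0577 and 0.0642) and without mutant array 1 or 2 (0.0754 and 0.0956). Without mutant array 3 the adjusted p was 0.0225.

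Near the threshold were 3 TIR-class genes. AT1G63750, reported as WRR9 for its part in resistance to white rust, had 6.88, 6.96 and 6.21 in the mutant arrays, against 6.04 in each of the 3 WT arrays. Mutant array 3 lay close to WT, while arrays 1 and 2 lay well above it. Its log2 change of 0.64 ± 0.184 (SE) was the largest of the 44 in size and did not pass (limma adjusted p = 0.057), whereas without mutant array 3 it was 0.88 (adjusted p = 0.00245).

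AT1G56520, a neighbour of the white rust resistance gene WRR4A, had 5.91, 6.18 and 6.13 in the mutant arrays, against 5.62, 5.62 and 5.82 in the WT arrays. The genotypes did not overlap, and the log2 change of 0.39 ± 0.106 (SE) stood just outside the threshold (limma adjusted p = 0.0503). AT3G25510 had 3.84, 3.56 and 3.6 in the mutant arrays, against 3.3, 3.29 and 3.41 in the WT arrays. Here too every mutant array was above every WT array, at a log2 change of 0.33 ± 0.101 (SE, limma adjusted p = 0.0685). Each of them passed under at least 1 of the alternatives described in the closing section.

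The other genes with an unadjusted p under 0.05 were AT3G44630, AT4G12010 and AT5G05400. AT3G44630, a homologue of the downy mildew resistance gene RPP1, had 7.67, 7.87 and 7.85 in the mutant arrays, against 7.5, 7.63 and 7.27 in the WT arrays. The genotypes were separate by a narrow gap, and the log2 change of 0.33 ± 0.115 (SE) did not pass (limma adjusted p = 0.103). AT4G12010, known as DSC1, a TIR-class gene whose dominant-negative form suppresses the autoimmunity of camta3 mutants, was the one lower in the mutant, with 5.53, 5.57 and 5.63 in the mutant arrays and 5.77, 5.88 and 5.75 in the WT arrays. All its mutant arrays lay below all WT arrays, at a log2 change of -0.22 ± 0.0832 (SE, limma adjusted p = 0.124). AT5G05400, of the coiled-coil class, had 4.22, 4.36 and 4.34 in the mutant arrays, against 4.25, 4.01 and 3.89 in the WT arrays. WT array 1 overlapped the mutant arrays (log2 change 0.26 ± 0.111, limma adjusted p = 0.177).

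**Figure D2:**
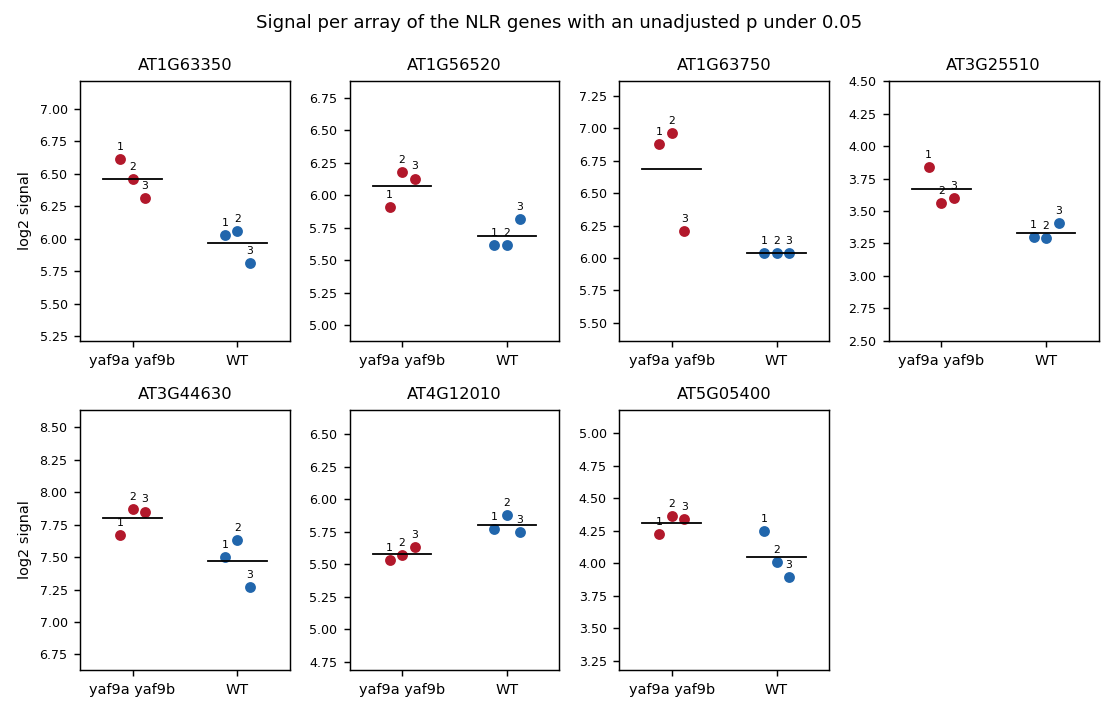
Log2 signal (vertical axis, a span of 2 in each panel) in each yaf9a yaf9b and WT array for the 7 NLR genes with an unadjusted p under 0.05; points are arrays, numbered by replicate, and lines are means of 3. The genotypes are separate in all panels except AT5G05400, and AT4G12010 is the one gene lower in the mutant.

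In 7 of the 44 genes (15.9%) every mutant array lay on one side of every WT array, against 31.6% of all probe sets. In 6 of these the mutant was above, beside 15.6% of all probe sets, and in 1 it was below, beside 15.9%. Besides the genes above, AT1G58410 was separate, with 3.72, 3.58 and 3.63 in the mutant arrays and 3.45, 3.42 and 3.57 in the WT arrays. Its gap was 0.01 on the log2 scale at the narrowest, which is the step of the deposited values, and its log2 change of 0.16 ± 0.087 (SE) missed the threshold (limma adjusted p = 0.275).

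Both classes were near 0. Of the 27 TIR-class genes measured, 0 passed after adjustment, 4 were higher and 1 lower at an unadjusted limma p under 0.05, 19 had a change above 0, and their median on the log2 scale was 0.11. Of the 17 coiled-coil-class genes, AT1G63350 rose, 2 were higher and 0 lower at the unadjusted p, 10 lay above 0 and the median was 0.01. Of all probe sets, 13.1% passed after adjustment, and 13.3% were higher and 14.4% lower at the unadjusted limma p. Whether the classes differed was not tested. Over both classes 29 of 44 genes lay above 0 (65.9%), against 51% of all probe sets, which are not matched for signal. In the lowest quartile of signal 60.9% of 23 NLR genes lay above 0, against 60.1% of all probe sets there. The shares were 61.5% against 53.5% in the second quartile and 87.5% against 45.2% above the median signal.

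By position, 26 of the 44 genes fell into 11 clusters, defined as runs of measured members with neighbours no more than 200 kb apart in the RefSeq gene table, and 18 stood alone. The clusters were 9 pairs, 1 group of 3 and 1 group of 5. In 1 cluster a member passed. Every member was above 0 in 3 clusters, all of them pairs, namely AT1G56520 with AT1G56540, AT1G58390 with AT1G58410 and AT3G51560 with AT3G51570, with median log2 changes of 0.28, 0.13 and 0.06. Both members of AT3G46710 with AT3G46730, near the downy mildew resistance gene RPP13, were at or just below 0 (median -0.04). The other 7 clusters held members on both sides of 0 or a member at 0.

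The group of 5 on chromosome 1 runs from AT1G63350 to AT1G63880 and mixes both classes. Beside AT1G63350 and AT1G63750 it holds the TIR-class genes AT1G63730, AT1G63740 and AT1G63880. AT1G63730 had 4.09, 3.73 and 3.81 in the mutant arrays, against 3.76, 4.01 and 3.92 in the WT arrays, and AT1G63740 had 4.65, 4.32 and 4.1 in the mutant arrays, against 4.43, 4.17 and 4.6 in the WT arrays. Both overlapped, at log2 changes of -0.02 ± 0.12 and -0.04 ± 0.162 (SE, limma adjusted p = 0.941 and 0.902). AT1G63880, known as RLM1B, which contributes to resistance to the blackleg fungus, had 8.25, 8.43 and 8.18 in the mutant arrays, against 8.16, 8.2 and 8.25 in the WT arrays, also overlapping (0.08 ± 0.0937, limma adjusted p = 0.634). The 2 genes with higher mutant signals thus stood beside 3 whose genotypes overlapped, and the difference between neighbours was not tested.

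**Figure D3:**
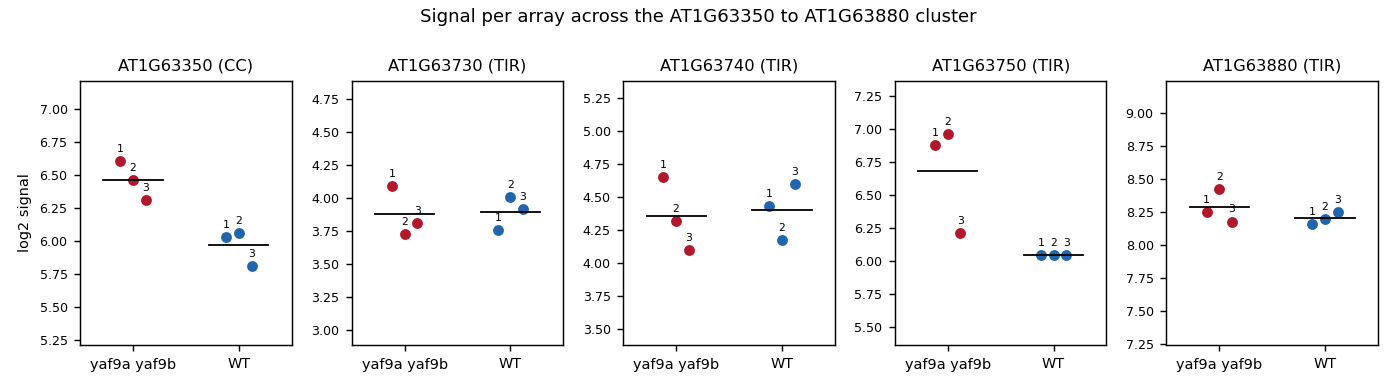
Log2 signal (vertical axis, a span of 2 in each panel) in each yaf9a yaf9b and WT array for the 5 measured genes of the AT1G63350 to AT1G63880 cluster, with class in brackets (CC, coiled-coil); points are arrays, numbered by replicate, and lines are means of 3. The genotypes are separate for AT1G63350 and AT1G63750 and overlap for the other 3 genes.

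The group of 3 on chromosome 2, AT2G16870, AT2G17050 and AT2G17060, all TIR-class, had log2 changes of -0.05, 0.12 and -0.03 (limma adjusted p = 0.797, 0.566 and 0.855), and all 3 overlapped between genotypes. AT4G19500 and AT4G19510, RPP2A and RPP2B, are both needed for one downy mildew resistance. RPP2A (AT4G19500) had 7.65, 7.8 and 8.07 in the mutant arrays, against 7.79, 7.91 and 7.4 in the WT arrays. RPP2B (AT4G19510) had 5.99, 5.95 and 6.19 in the mutant arrays, against 5.79, 6.43 and 6.08 in the WT arrays. The genotypes overlapped for both, at log2 changes of 0.14 ± 0.158 and -0.06 ± 0.16 (SE, limma adjusted p = 0.636 and 0.866), and the intervals of the change ran from -0.22 to 0.5 and from -0.42 to 0.31. The adjacent coiled-coil-class genes AT3G14460 and AT3G14470 had log2 changes of 0.14 ± 0.101 and -0.26 ± 0.152 (SE, limma adjusted p = 0.443 and 0.326), the second being the lowest of the 44.

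Among the genes that stood alone, AT2G14080, reported as the downy mildew resistance gene RPP28, had 7.2, 7.03 and 6.64 in the mutant arrays, against 6.73, 6.77 and 6.56 in the WT arrays. Mutant array 3 lay among the WT arrays (log2 change 0.27 ± 0.146, limma adjusted p = 0.283). AT1G69550 had 5.55, 6.22 and 6.3 in the mutant arrays, against 5.68, 5.89 and 5.51 in the WT arrays, so that mutant array 1 lay within the WT range and the other mutant arrays above it (0.33 ± 0.2, limma adjusted p = 0.339). It had the largest SE of the 44, and without mutant array 1 the change was 0.57 (adjusted p = 0.0426). AT5G11250, known as BURNOUT1 and linked to hormone levels under stress, had a log2 change of 0.13 ± 0.0928, and AT1G50180, CAR1, which recognises the bacterial effectors AvrE and HopAA1, 0.01 ± 0.126 (SE, limma adjusted p = 0.412 and 0.964). RefSeq lists AT4G14610 as a transcribed pseudogene. Its log2 change was -0.06 ± 0.141 (limma adjusted p = 0.846).

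Most NLR probe sets gave little signal. Of the 44, 36 had a mean log2 signal below 6.02, the median of all probe sets, and 23 of them lay below 3.92, the lowest quartile bound. The deposited values carry no detection calls, so it was not tested which were above background. Among the 36 below the median, 0 passed, against 7.73% of all probe sets there, 3 were higher and 1 lower at an unadjusted limma p under 0.05 (11.1% against 17.8%), 22 lay above 0 (61.1% against 56.8%), and the median log2 change was 0.02, against 0.03. Among the 8 above the median, 1 rose, against 18.5% of all probe sets there that passed, and 3 were higher and 0 lower at an unadjusted limma p under 0.05 (37.5% against 37.7%). Of these 8, 7 had a change above 0 (87.5% against 45.2%), and the median was 0.2, against -0.03. Below the lowest quartile bound 1.34% of all probe sets passed. Between that bound and the median 14.1% passed, against 0 of 13 NLR genes. Signals of different probe sets are not amounts that can be set against each other.

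**Figure D4:**
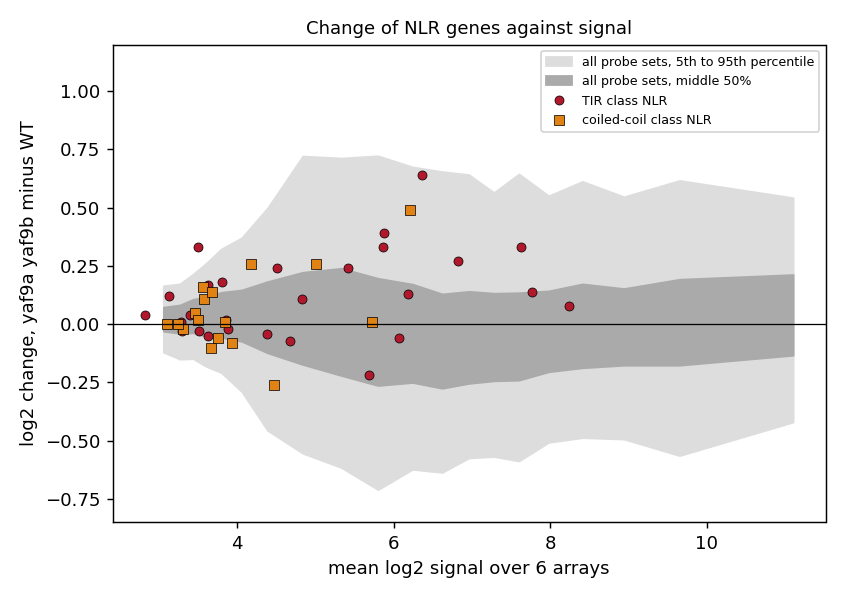
Log2 change (yaf9a yaf9b minus WT, vertical axis) against mean log2 signal over the 6 arrays (horizontal axis) for the 44 NLR genes, with grey bands for the middle 50% and the 5th to 95th percentile of all 22746 probe sets at the same signal. The 23 genes below a signal of 3.92 lie between -0.1 and 0.33, and the 8 genes above 6.02 between -0.06 and 0.64.

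Of 51 other genes of the NLR pathway, covering the EDS1 family, helper NLRs, co-chaperones, NLR turnover, well-studied NLRs and salicylic acid synthesis and response, only 4 had a probe set of their own, and 1 rose and 0 fell. Of all probe sets, 6.52% rose and 6.61% fell. At an unadjusted limma p under 0.05, 2 of the 4 were higher and 0 lower, beside 13.3% and 14.4% of all probe sets. SAG101, the EDS1 partner that works with NRG1 helpers downstream of TIR-class receptors, had 5.22, 5.56 and 5.22 in the mutant arrays, against 4.3, 4.82 and 4.56 in the WT arrays. The genotypes were separate, with a 1.71-fold rise (log2 change 0.77 ± 0.153, limma adjusted p = 0.0166). Its call ended without mutant array 2 (0.0696). SGT1A, a co-chaperone that helps stabilise NLR proteins, had 8.57, 8.49 and 8.49 in the mutant arrays, against 8.22, 8.2 and 8.29 in the WT arrays. It was separate as well, but small and outside the threshold (0.28 ± 0.0801, limma adjusted p = 0.0569).

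CSA1, a TIR-class receptor that works with CHS3, had 7.12, 7.35 and 7.4 in the mutant arrays, against 7.05, 7.31 and 6.98 in the WT arrays, and SNIPER1 (AT1G14200), a ubiquitin ligase that controls NLR levels, had 7.88, 7.66 and 7.75 in the mutant arrays, against 8.21, 7.63 and 7.68 in the WT arrays. Both overlapped, at log2 changes of 0.18 ± 0.12 and -0.08 ± 0.158 (SE, limma adjusted p = 0.4 and 0.811). EDS1, PAD4, the helper NLR genes and all 14 salicylic acid genes, PR1 among them, were not analysed here.

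**Figure D5:**
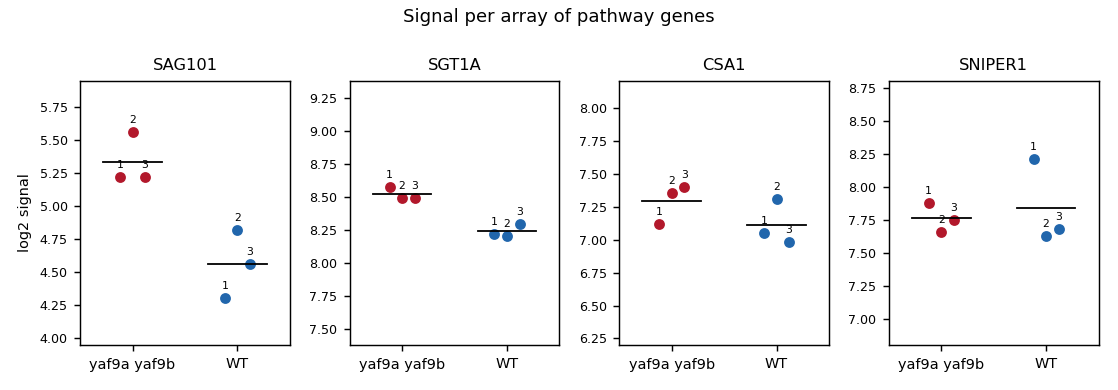
Log2 signal (vertical axis, a span of 2 in each panel) in each yaf9a yaf9b and WT array for the 4 measured pathway genes outside the NLR set; points are arrays, numbered by replicate, and lines are means of 3. The genotypes are separate for SAG101 and SGT1A and overlap for CSA1 and SNIPER1.

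Array medians over all probe sets lay between 5.99 and 6.03 in the mutant and between 6.02 and 6.06 in WT, and 2985 probe sets passed. In the annotation used, which lists no gene for 8730 probe sets, 0 probe sets listed YAF9A or YAF9B alone. No targeted transcript was therefore used to check the genotype of an array. Whole seedlings hold many tissues, and fewer cells of a type and less RNA per cell cannot be told apart in them. The measured root markers PYK10, EXPA18 and EXPA7 had log2 changes of -0.15, 0.07 and -0.01, with 0 of 3 past the limma threshold or an unadjusted p of 0.05. Of the 2 measured green tissue markers LHCB4.2 fell (-0.33 ± 0.0876, limma adjusted p = 0.0434) and LHCB4.1 did not pass (-0.07 ± 0.0841, adjusted p = 0.642). The part of tissue makeup in the NLR values was not tested.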

How the data were processed

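The authors deposited 1 log2 value per probe set and array, with 2 decimals. The submitters' processing notes list RMA and affy. The sources used here do not state software versions, genome build, scan dates or hybridisation batches, so any batch that ran with genotype cannot be told apart from it. Since RMA gives arrays like distributions, a change common to most transcripts is not visible. Precision is limited by the number of arrays, 3 per genotype as their titles state.

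Control probe sets (64 of 22810) were removed. The remaining 22746 were tested in R 4.3.3 with limma 3.58.1: a two-sided lmFit and eBayes test of mutant minus WT without filter or block, Benjamini-Hochberg adjustment over all probe sets and a threshold of 0.05. The code was tested on simulated data. Names came from GEO's platform annotation, joined by gene ID to the TAIR10.1 RefSeq table. One gene was listed for 13513 probe sets, several for 503 and none for 8730. Receptor classes and roles are background knowledge and not from the files. No sequence was used here.

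The members and lists were chosen with earlier results of these data known. Named genes were every member past the threshold, the 4 brightest that did not pass, members of clusters of 3 or more, and the measured pathway genes and markers. Naming of the other members followed a look at their values. The alternatives tried were normalisation by cyclic loess or by median centring, array quality weights, a trended robust variance model, a filter on the dimmest 40% of probe sets, leaving out suffixes _s_at and _x_at, the mean over probe sets, the replicate number as a block and leaving out each array.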

Additional observations from a re-analysis of the deposited data

Results flagged for a closer look

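Of 5 probe sets that listed several genes with a member among them, which the comparisons did not use and which are not named here, 1 was higher in the mutant. It averaged 4.85 in the mutant and 4.01 in WT on the log2 scale (n = 3 each), a log2 change of 0.84 ± 0.164 (SE, limma adjusted p = 0.0162). It drew attention because it lies outside the single-gene measurements, and which of its genes gave the signal cannot be told apart. The other 4 had log2 changes of -0.12, 0, 0.08 and 0.29 (limma adjusted p = 0.525, 0.988, 0.755 and 0.445).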

How the results depend on the processing

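The count of NLR genes that changed, 1 as reported, was 1 with the mean over probe sets, 2 after cyclic loess and without suffixed probe sets, 3 after median centring, with the trended robust variance model and without dim probe sets, and 4 with array quality weights. Every one of these was higher in the mutant, and 0 fell in any setting. The genes added were AT1G56520, AT1G63750, AT3G25510 and AT3G44630, each at an adjusted p between 0.0154 and 0.0499, and AT1G63350 passed in all of these settings. Of all features tested, 11.9% passed with the mean over probe sets, 13% after cyclic loess and 13.5% without suffixed probe sets. The share was 12.7% after median centring, 13.5% with the trended robust variance model and 18.8% with array quality weights. Without dim probe sets it was 21.7%, beside 3 of the 13 NLR genes kept. Leaving out 1 array gave 0 to 3 changed and 0 to 3 higher, where 4.23% to 11.8% of all probe sets passed. Genes added there were AT1G56520 (without WT array 3 or mutant array 1), AT1G69550 (without mutant array 1), AT1G63750 and AT2G14080 (without mutant array 3). The median log2 change ran from 0.04 to 0.09 leaving out 1 array and was 0.24 without dim probe sets, where only 13 of the 44 genes were kept. Changed pathway genes numbered 2 after cyclic loess, median centring and array quality weights, with SGT1A added, and 0 to 1 leaving out 1 array. Without dim probe sets the count of 1 was SGT1A, since SAG101 was filtered out. The mean over probe sets and the removal of suffixed ones could not change an NLR gene's own values. Among the 44, 0 had more than 1 probe set and 0 a suffixed one. Without suffixed probe sets AT1G56520 kept its log2 change of 0.39, and only the set of probe sets tested differed (limma adjusted p = 0.0491 against 0.0503). The causes of the other shifts, apart from the filter, were not tested.

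With the replicate number as a block, 1 NLR gene changed (AT1G63350, limma adjusted p = 0.0477) and 1 pathway gene, beside 5.42% of all probe sets. No call among the NLR and pathway genes differed when the replicate number was added. The numbers gave no sign of pairing: mutant and WT arrays 1, 2 and 3 deviated from their genotype means with correlations of -0.21, 0.01 and -0.32, and 0 of 6 arrays had its highest correlation with its own number. Genes with a change near 0 turned sign in 33 of 585 comparisons, in 15 NLR genes with reported changes of at most 0.14 in size, none of them past the threshold. These were AT1G50180 (-0.01), AT3G51570 (-0.02), AT4G27220 (-0.02) and AT5G18350 (-0.01) after cyclic loess, AT1G59780 and AT1G63730 (0.01 each) after median centring and AT3G51570 (-0.04) with array weights. Leaving out 1 array, changes ran from -0.09 to 0.14 for AT1G50180, -0.06 to 0.06 for AT1G53350, -0.06 to 0.01 for AT1G59780, -0.13 to 0.05 for AT1G63730, -0.19 to 0.09 for AT1G63740 and -0.06 to 0.14 for AT1G65850. They ran from -0.09 to 0.01 for AT2G16870, -0.14 to 0.03 for AT3G46710, -0.14 to 0.17 for AT3G51570, -0.01 to 0.13 for AT4G10780, -0.19 to 0.04 for AT4G14610 and -0.01 to 0.25 for AT4G19500. They ran from -0.21 to 0.11 for AT4G19510, -0.07 to 0.09 for AT4G27220, -0.02 to 0.04 for AT5G18350 and -0.18 to 0.11 for SNIPER1 (AT1G14200). The cause was not tested. Whether low signal limited what could be seen for the 36 NLR genes below the median signal was not tested.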
